A study of Mus musculus with 28 samples.

Results

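Open chromatin around Tet1, Tet3, Dnmt3a and Dnmt3b was followed through the reprogramming of Tet2-deficient mouse embryonic fibroblasts (MEFs). ATAC-seq maps open chromatin by letting a transposase insert adapters wherever DNA is exposed. It had been run on 28 libraries, and 1 list of peaks per library was deposited. Every peak overlapping a window around one of the 4 genes was taken, and peaks that overlapped each other were merged into regions. In build mm9 the windows were chr10:62220000-62390000 for Tet1, chr6:83270000-83450000 for Tet3, chr12:3760000-3960000 for Dnmt3a and chr2:153440000-153550000 for Dnmt3b. They held 88 of the 172177 merged regions of the genome, 22 at Tet1, 25 at Tet3, 29 at Dnmt3a and 12 at Dnmt3b. Of these, 59 were called in at least 2 libraries (16, 15, 20 and 8 in the same order of genes) and 29 in a single library. The windows reach beyond the genes themselves, so a region may belong to a neighbour. The neighbours in the RefSeq gene table are Ccar1 and Slc25a16 for Tet1, Bola3 and Dguok for Tet3, Dtnb and Pomc for Dnmt3a, and Commd7 and Mapre1 for Dnmt3b. Gene annotation of mm9 was not used here, so regions are named by position and not assigned to promoters, exons or introns.

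The reprogramming cells were primary Tet2-/- MEFs carrying OKSM and rtTA, that is, the reprogramming factors Oct4, Klf4, Sox2 and c-Myc together with the activator that doxycycline switches on. They had the strain background V6.5 129XBI/6 and came from embryonic day 12.5. The 6 reprogramming groups of 4 libraries each had received a pMXs retrovirus with Tet2-E, with Tet2-WT or with no insert (empty vector), and were collected at day 5 or day 10. Tet2-E is a mutant that the series' text calls stalling, and Tet2-WT is the wild-type enzyme, so both put a Tet2 back into cells without one, while the empty-vector cells stayed without it. These cells grew on Mito-C feeder cells in medium with LIF, PD0325901, CHIR99021 and doxycycline, and were isolated by a sort that the labels name SSEA1-RFP. The 4 MEF libraries, day 0 of the series, are labelled as control untreated and also came from embryonic day 12.5. They had no vector, no sorting and no doxycycline medium. Their own labels state no genotype, and that they too were Tet2-/- with OKSM and rtTA is taken from the series' design text. Vector infection, medium, feeders, sorting and time all differ between the reprogramming cells and MEFs and cannot be told apart. No source used here says that replicates came from separate embryos or cultures, so a p here reflects how libraries of a group vary, and that variation may be technical.

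TET enzymes (Tet1, Tet2 and Tet3) oxidise 5-methylcytosine in steps, to 5-hydroxymethylcytosine, 5-formylcytosine and 5-carboxylcytosine, and the later forms can be cut out and replaced by plain cytosine. Dnmt3a and Dnmt3b are the de novo methyltransferases, which place methyl groups on cytosines that had none. In pluripotent mouse cells Tet1 is typically strongly expressed. Tet3 is known mainly from the oocyte and zygote and from neurons, and Dnmt3a is used both in pluripotent and in many differentiated cells. The study's title concerns what oxidised bases do during reprogramming. The 4 loci encode the other TET enzymes and the de novo methyltransferases named above, in cells whose Tet2 was deleted or replaced. Open chromatin at a locus is not a measure of its transcript, and expression was not measured in these libraries.

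All 4 enzymes act at CpG dinucleotides, and the start regions of their own genes differ in CpG content. The sequences from 250 bases before to 50 bases after each start are shown to make this visible, as given by RefSeq on GRCm38.p6, 5′ to 3′ on the gene's strand, with each CpG in capitals. All 4 genes matched the RefSeq table, and Dnmt3a has 3 listed starts, of which the first and the last are shown; the last lies 84584 bases after the one before it.
Tet1: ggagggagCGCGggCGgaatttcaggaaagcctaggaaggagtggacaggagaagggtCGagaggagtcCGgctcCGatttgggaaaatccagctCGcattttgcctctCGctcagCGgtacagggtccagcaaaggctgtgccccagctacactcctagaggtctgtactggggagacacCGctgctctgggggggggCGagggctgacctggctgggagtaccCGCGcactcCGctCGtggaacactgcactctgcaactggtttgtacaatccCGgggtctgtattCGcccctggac
Tet3: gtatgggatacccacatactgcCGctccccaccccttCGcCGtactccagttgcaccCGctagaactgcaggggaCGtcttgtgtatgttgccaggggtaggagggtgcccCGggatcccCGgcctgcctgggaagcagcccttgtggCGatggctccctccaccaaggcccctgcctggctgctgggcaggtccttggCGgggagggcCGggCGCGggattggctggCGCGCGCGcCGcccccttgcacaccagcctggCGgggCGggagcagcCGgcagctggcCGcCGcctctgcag
Dnmt3a first start: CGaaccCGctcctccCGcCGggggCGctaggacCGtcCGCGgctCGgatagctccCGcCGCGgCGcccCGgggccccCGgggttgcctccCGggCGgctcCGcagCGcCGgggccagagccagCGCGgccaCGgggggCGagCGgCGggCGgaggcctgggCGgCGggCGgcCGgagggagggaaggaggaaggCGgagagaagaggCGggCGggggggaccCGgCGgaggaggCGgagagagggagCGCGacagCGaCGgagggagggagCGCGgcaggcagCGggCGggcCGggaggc
Dnmt3a last start: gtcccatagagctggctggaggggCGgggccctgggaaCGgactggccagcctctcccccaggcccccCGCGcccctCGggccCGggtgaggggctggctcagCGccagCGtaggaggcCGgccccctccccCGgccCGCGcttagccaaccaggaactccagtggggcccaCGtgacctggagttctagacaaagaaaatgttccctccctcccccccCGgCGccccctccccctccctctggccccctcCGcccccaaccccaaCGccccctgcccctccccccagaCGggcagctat
Dnmt3b: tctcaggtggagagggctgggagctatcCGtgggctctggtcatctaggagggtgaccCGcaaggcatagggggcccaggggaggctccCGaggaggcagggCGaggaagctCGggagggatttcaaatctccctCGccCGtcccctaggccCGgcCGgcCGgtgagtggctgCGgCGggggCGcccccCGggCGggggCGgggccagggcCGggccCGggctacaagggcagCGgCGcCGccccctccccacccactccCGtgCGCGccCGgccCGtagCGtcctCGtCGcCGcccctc

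These stretches lie at chr10:62887275-62887574 (minus strand), chr6:83441629-83441928 (minus), chr12:3806730-3807029 (plus), chr12:3891494-3891793 (plus) and chr2:153649199-153649498 (plus) of GRCm38.p6. These positions are not comparable with the mm9 positions of the peaks. The first Dnmt3a start held 46 CpGs in its 300 bases, a number reached by 1.65% of the 32851 promoters in the table. The last Dnmt3a start, which belongs to the same gene, held 18, reached by 29.7% of promoters. Dnmt3b held 30 (11.7%), Tet3 22 (23.1%) and Tet1 17 (31.4%), against a median of 7 over all promoters. The motif GGGCGG, counted on both strands, occurred 6 times in the first Dnmt3a stretch, 4 times in Dnmt3b, 2 times each in Tet3 and the last Dnmt3a stretch, and 1 time in Tet1, and 35.7% of all promoters held at least 1.

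The 28 lists held 27918 to 72332 peaks. The relative depth, taken as the background pileup that each list implies, averaged 0.503 ± 0.113 fragments over 4 MEF libraries, 0.865 ± 0.0732 over 12 libraries of day 5 and 0.522 ± 0.115 over 12 of day 10 (± SD). Day 5 libraries were therefore the deepest, and MEF and day 10 libraries were similar in depth by this measure. A library is said to call a region that any of its peaks overlaps. Regions were gained or lost when the number of calling libraries differed at an adjusted p under 0.05 by an exact test, with Benjamini-Hochberg adjustment over every region of the genome tested. The fold given for a peak is that of the authors' peak caller, the summit over the local background of the same library. It ranks peaks within a list and is not compared between groups.

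Across the 4 loci most regions did not pass between days, with single regions gained or lost at Tet1, Tet3 and Dnmt3a and, with the full lists, none at Dnmt3b. At day 5 against MEFs, 2 of the 49 regions tested were gained and 3 were lost, against 9.81% gained and 16.1% lost (25.9% in all) of the 99090 regions tested over the genome. At day 10 against MEFs, 2 of 49 were gained and 6 were lost, against 5.66% and 22.6% (28.2% in all) of 89226. Both counts of members, 4.08% gained at each day, 6.12% lost at day 5 and 12.2% lost at day 10, lay under the genome's shares, and that difference was not tested. The day 5 and day 10 comparisons share the same 4 MEF libraries. Between day 10 and day 5 none of the 49 regions passed the exact test stratified by vector, where 0.144% of 83195 regions were gained and 1.00% lost (1.15% in all). The smallest adjusted p among them was 0.0507 by that exact test. An unadjusted p under 0.05 was reached by 7 of the 49, and over the genome by 10165 of the 83195 regions. Single libraries moved these counts. The 3 losses at day 5 became 1 without MEF replicate 1 or without MEF replicate 3, and 5 without empty vector replicate 3 or without Tet2-WT replicate 4 of day 5. Between day 10 and day 5, the Tet1 region at 62275269 was gained without any one of the 24 libraries, and the Tet1 region at 62349276 was lost without empty vector replicate 2 of day 5 (adjusted p = 0.0499, exact test). Among regions that could be tested, the median difference in the share of calling libraries was 0 percentage points at day 5 against MEFs and 0 at day 10 against MEFs, with 0 and -8.33 over all regions of the genome. At day 10 against day 5 it was -8.33 for the members and -8.33 over the genome.

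**Figure D1:**
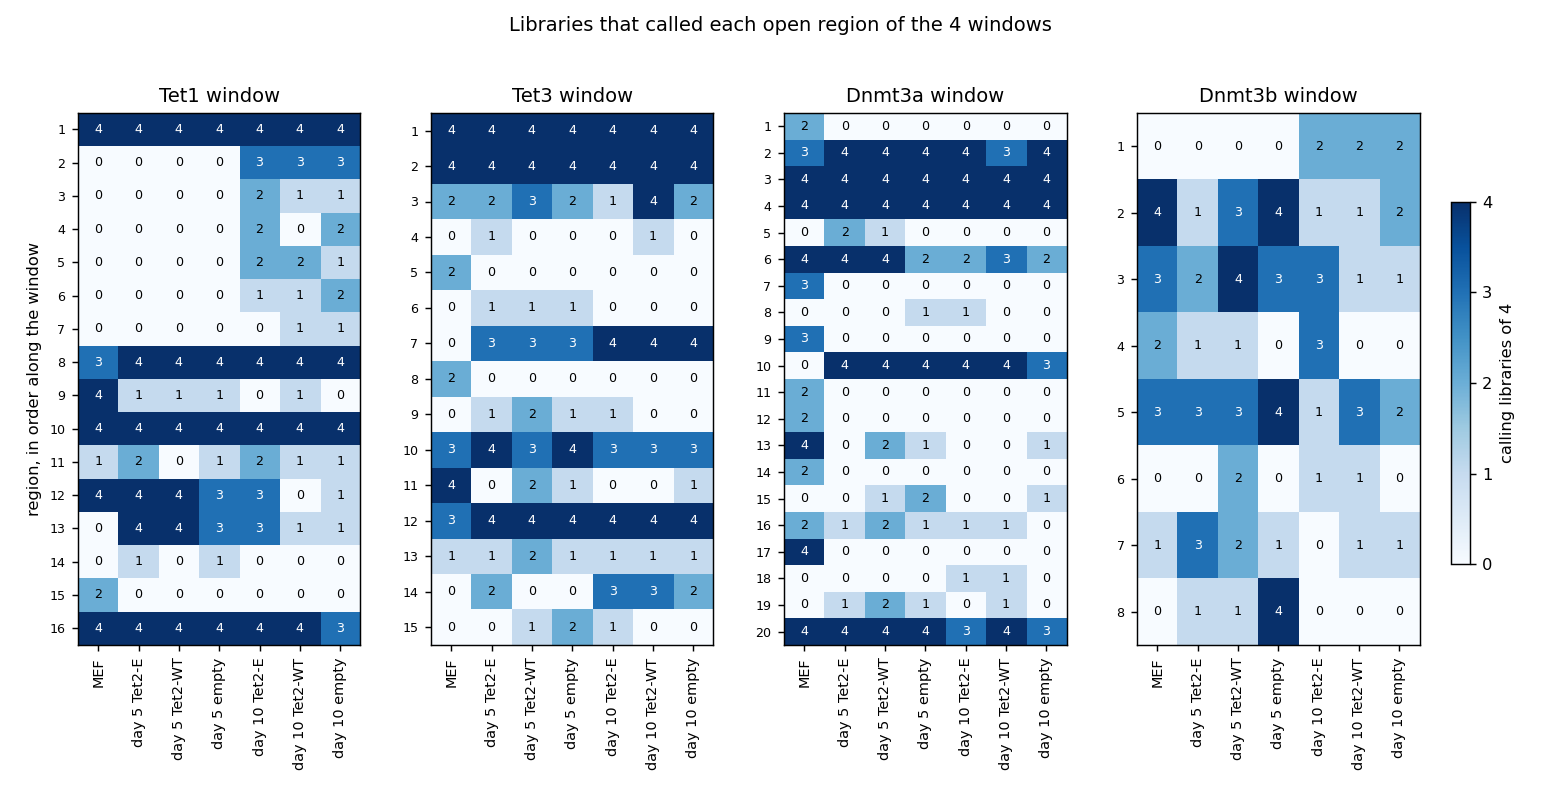
Number of libraries that called each region of the 4 loci, for the 59 regions called in at least 2 libraries, in order along each window (rows) and by group of 4 libraries (columns), with darker colour for more libraries. At Tet1 a block of 6 regions is filled only in day 10 columns, and at Dnmt3a several regions are filled only in the MEF column.

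Of the regions open in every library, 2 lay in each of the Tet1, Tet3 and Dnmt3a windows and none at Dnmt3b. They made up 6 of the 59 members called in at least 2 libraries (10.2%), against 7.04% over the genome (7740 of 109954). At Tet1 these were chr10:62254785-62255484 and chr10:62327983-62328672. The first had folds of 7.86 to 12.2 in the 4 MEF libraries, 7.93 to 13.4 at day 5 (median 10.1) and 9.34 to 13.4 at day 10 (median 11.2). The second had 8.28 to 13.4 in MEFs, 10.3 to 14.9 at day 5 and 5.87 to 13.2 at day 10. At Tet3 they were chr6:83275701-83276551, with folds of 7.73 to 13.8 over all libraries, and chr6:83299106-83299924, with 4.41 to 12.5. At Dnmt3a they were chr12:3791806-3792221, with 8.22 to 14.4, and chr12:3806262-3806795, with 4.75 to 9.02. With each list reduced to the same number of strongest peaks, the last of these was gained at day 5 against MEFs (adjusted p = 0.0304, Fisher's exact test).

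Tet1, the TET enzyme best known from embryonic stem cells, had 1 region gained of 10 tested at day 5 and 1 lost of 15 tested at day 10. These were 10% gained and 6.67% lost, against 9.81% gained at day 5 and 22.6% lost at day 10 over the genome. Among its regions called in at least 2 libraries, 6 were called in day 10 libraries only. The gained region, chr10:62355400-62355925, was called by 11 of 12 day 5 libraries and by no MEF library (adjusted p = 0.0165, Fisher's exact test). Its folds at day 5 ran from 4.77 to 8.99 with a median of 5.60, and the one day 5 library without it was empty vector replicate 1. The call ended when peaks had to cover 50% of the region (adjusted p = 1), at a -log10 q of 5 (0.198) and at equal list length (0.773), all by Fisher's exact test. It also ended when replicate number 2, 3 or 4 was left out of every group (adjusted p of up to 0.0808, exact test). Day 10 libraries called it less evenly, 3 with Tet2-E, 1 with Tet2-WT and 1 with the empty vector. That made 5 of 12 at day 10 against 0 of 4 in MEFs, which did not pass (adjusted p = 0.427, Fisher's exact test). With day 10 set against day 5 it did not pass either (adjusted p = 0.314, exact test stratified by vector).

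The Tet1 region lost at day 10, chr10:62313740-62314171, was among the strongest peaks of the window in MEFs. It had folds of 13.7, 13.5, 11.4 and 15.0 in the 4 MEF libraries. Of the 12 day 10 libraries a single one called it, Tet2-WT replicate 2 at a fold of 6.30 (adjusted p = 0.0156, Fisher's exact test against MEFs). At day 5 it was called in 1 library of each vector, at folds of 5.21 with Tet2-E, 6.99 with Tet2-WT and 7.95 with the empty vector, and 3 of 12 against 4 of 4 in MEFs did not pass (adjusted p = 0.0678, Fisher's exact test). It passed at day 5 without any one of these 3 libraries, Tet2-E replicate 2, Tet2-WT replicate 3 or empty vector replicate 3 (adjusted p = 0.0399 to 0.0406, Fisher's exact test), and likewise with 50% coverage (0.0224), at a -log10 q of 5 (0.0313) and at equal list length (0.0314). The day 10 call ended when replicate number 1, 3 or 4 was left out of every group (adjusted p of up to 0.0790, exact test). A neighbouring region of the same window, chr10:62349276-62350279, was called by all 4 MEF libraries, by 11 of 12 day 5 libraries and by 4 of 12 day 10 libraries. Its lower count at day 10 against day 5 did not pass after adjustment (adjusted p = 0.152, exact test stratified by vector). Against MEFs it was lost at both days when peaks had to cover 50% of the region (adjusted p = 0.0337 at day 5 and 0.0265 at day 10, exact test) and at day 10 at a -log10 q of 5 (0.0293). A Tet1 region starting at 62306449 was gained at day 5 against MEFs with 50% coverage (adjusted p = 0.00563, exact test) and at equal list length (0.0304), and not with the full lists.

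Beyond the first of the regions open in every library, 6 Tet1 regions spread over 21.105 kb, from position 62275269 to 62296373 of chromosome 10, were called in day 10 libraries and in none of the 12 day 5 and 4 MEF libraries. The same stretch also held chr10:62287430-62287530, called by MEF replicate 1 alone at a fold of 5.42. The 6 regions were singled out after their values were seen. The widest of them, chr10:62275269-62276136, was called by 9 of 12 day 10 libraries, 3 for each vector. Its folds were 8.94, 7.28 and 5.22 with Tet2-E, 9.42, 7.72 and 6.63 with Tet2-WT, and 6.88, 9.16 and 4.55 with the empty vector. The day 10 libraries without it were Tet2-E replicate 3, Tet2-WT replicate 4 and empty vector replicate 4. It was just outside the threshold in both comparisons, with an adjusted p of 0.0634 by Fisher's exact test against MEFs and of 0.0507 by the exact test against day 5. Against MEFs it passed without any one of those 3 libraries (adjusted p = 0.0376 to 0.0377, Fisher's exact test). With any single reprogramming library left out, the adjusted p against day 5 fell under the threshold, and its range over all leave-outs, including those of a replicate number in every group, was 0.0184 to 0.366. Over the genome, 80 regions were called by no MEF library, no day 5 library and at least 9 day 10 libraries.

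The other regions of this stretch were called less often. The region chr10:62285262-62285504 was called by 5 day 10 libraries at folds of 7.69 to 11.96, and chr10:62276328-62276559, chr10:62282234-62282366 and chr10:62295642-62295749 by 4 each. The last, chr10:62296288-62296373, was called by 2. Tet2-E replicates 1 to 4 called 5, 4, 0 and 1 of the 6 regions. Tet2-WT replicates 1 to 4 called 3, 4, 1 and 0, and empty vector replicates 1 to 4 called 5, 3, 2 and 0. Replicates 1 and 2 of the 3 vectors thus held 24 of the 28 calls, and replicates 3 and 4 held 4. The background pileup moved with this split, from 0.495 to 0.768 in the 6 libraries of replicates 1 and 2 and from 0.361 to 0.532 in the 6 of replicates 3 and 4. Its part in the number of calls within day 10 was not tested. All 12 day 5 libraries, at 0.746 to 1.037, had more background than every day 10 library other than Tet2-E replicate 1, and called none of the 6 regions. Over all 4 loci 8 of 59 regions were absent from MEF and day 5 lists, 6 at Tet1, 1 at Dnmt3a and 1 at Dnmt3b, and over the genome 3.77% were.

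**Figure D2:**
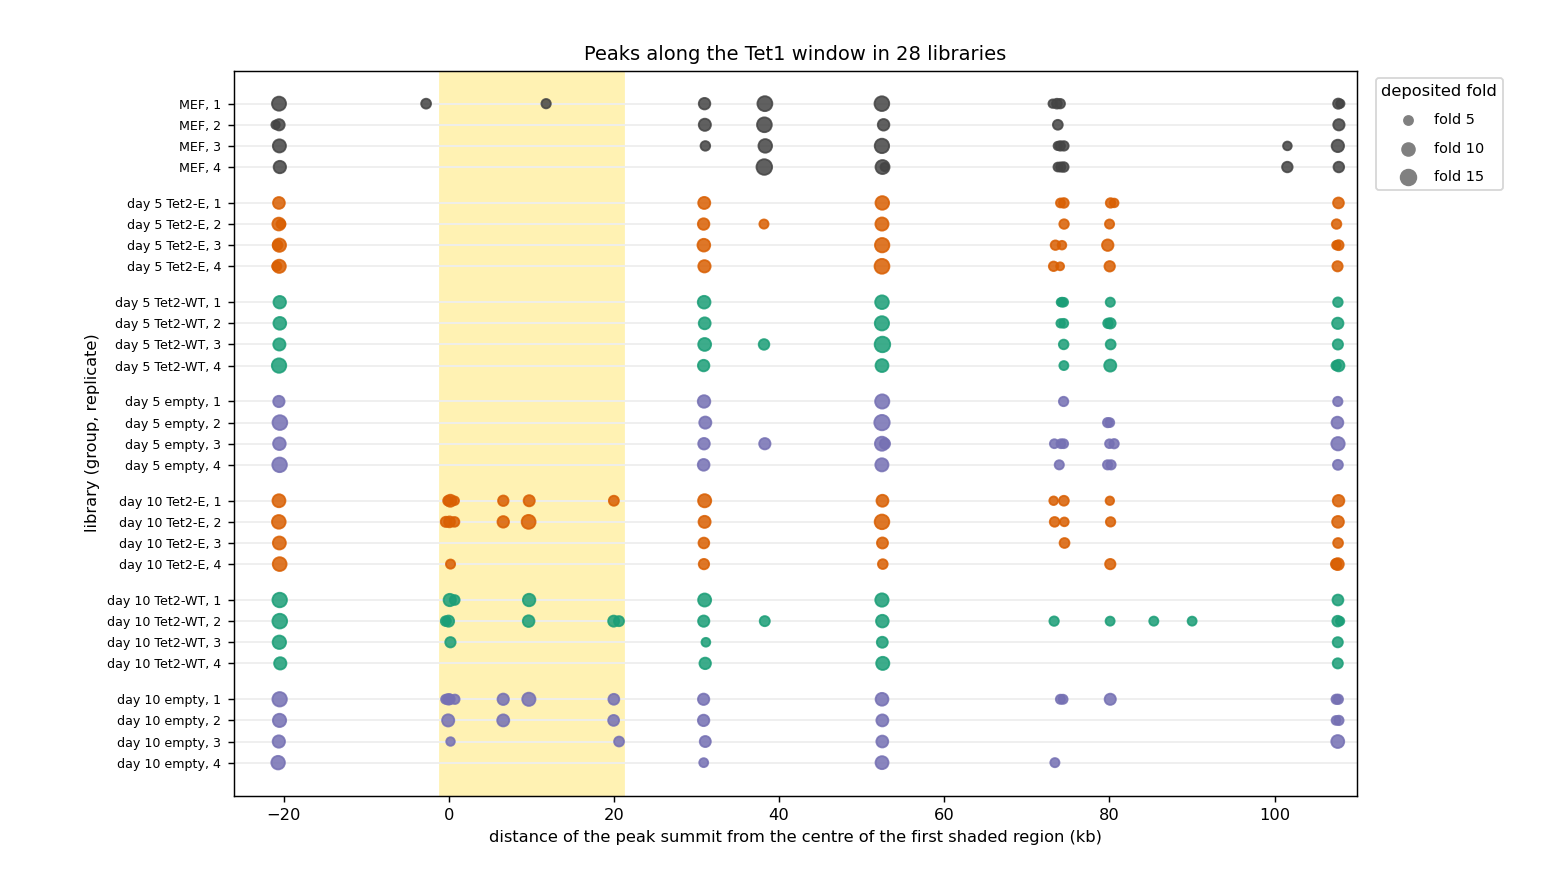
Peaks of the Tet1 window in each of the 28 libraries (rows), by the distance of the peak summit in kb from the centre of the first region of the day 10 stretch (horizontal axis), with the area of each point rising with the deposited fold. The shaded stretch of 21.105 kb holds points in day 10 libraries, mostly replicates 1 and 2, no point in day 5 libraries and 1 point in MEF replicate 1, which belongs to another region.

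**Figure D3:**
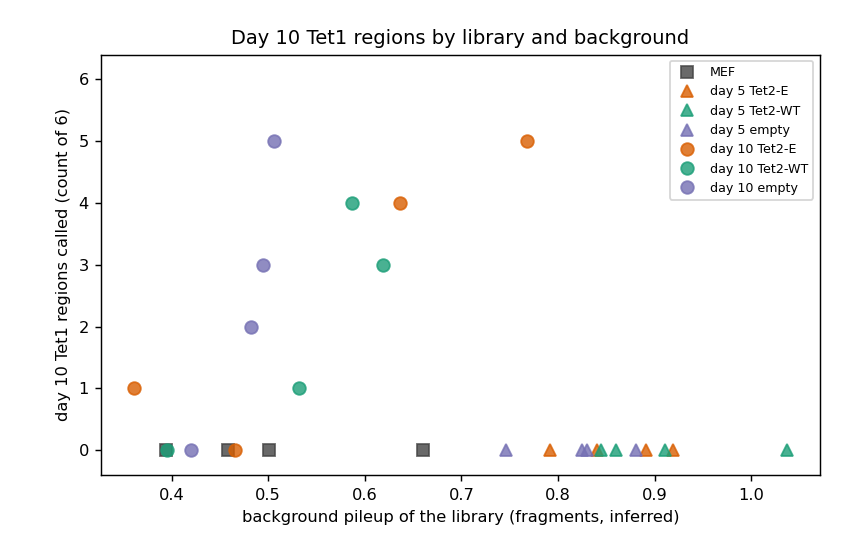
Number of the 6 day 10 Tet1 regions that each library called (vertical axis) against the background pileup of the library in inferred fragments (horizontal axis), 1 point per library with shape for time and colour for vector. Day 5 libraries have backgrounds of 0.746 to 1.037 and none of the 6 regions, while day 10 libraries from 0.361 to 0.768 have 0 to 5 and MEF libraries from 0.394 to 0.66 have none.

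Tet3, which oxidises methylcytosine in the zygote, had, with the full lists, none of 14 tested regions past the threshold at day 5. At day 10 it had 1 gained and 1 lost of 11 tested (9.09% each, against 5.66% and 22.6% over the genome). The gained region, chr6:83371779-83372231, was absent from the 4 MEF lists, called by 9 of 12 day 5 libraries, 3 for each vector, and by all 12 day 10 libraries. At day 10 its folds were 10.4, 7.76, 6.87 and 7.38 with Tet2-E, 10.1, 9.45, 9.60 and 6.67 with Tet2-WT, and 8.87, 6.28, 6.91 and 8.18 with the empty vector. All day 10 libraries therefore called it, whichever vector they carried, against none of the MEFs (adjusted p = 0.00374, Fisher's exact test; 0.144 when peaks had to cover 50% of the region). At day 5 the folds ran from 4.68 to 6.74, and 9 of 12 against 0 of 4 in MEFs did not pass (adjusted p = 0.0678, Fisher's exact test). The libraries without it at day 5 were Tet2-E replicate 4, Tet2-WT replicate 3 and empty vector replicate 3, and without any one of them it passed (adjusted p = 0.0399 to 0.0408, Fisher's exact test).

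The Tet3 region lost at day 10, chr6:83392647-83393110, had folds of 4.88, 8.52, 7.14 and 7.88 in the 4 MEF libraries. At day 10 it was called only by empty vector replicate 1, at 6.33 (adjusted p = 0.0156, Fisher's exact test against MEFs). That call ended when peaks had to cover 50% of the region (adjusted p = 0.0980, exact test) and at equal list length (0.0938), and when replicate number 2, 3 or 4 was left out of every group (up to 0.0790). At day 5 it was called by 2 Tet2-WT libraries and 1 empty vector library at folds of 3.99 to 4.43, and 3 of 12 against 4 of 4 did not pass (adjusted p = 0.0678, Fisher's exact test). It passed without Tet2-WT replicate 2 or 4 or empty vector replicate 4 (adjusted p = 0.0402 to 0.0410, exact test), and also at a -log10 q of 5 (0.0161) and at equal list length (0.0304). Regions on both sides of it were called in most libraries: chr6:83391358-83391961 was called in 3 MEF, 11 day 5 and 9 day 10 libraries, and chr6:83393416-83393919 in 3 MEF, 12 day 5 and 12 day 10 libraries. With the full lists the region at 83393416 did not pass, and it was gained at day 5 against MEFs with 50% coverage (adjusted p = 0.0358, exact test), at a -log10 q of 5 (0.0302) and at equal list length (0.00400), and at day 10 at equal list length (0.00401). Further along, chr6:83407233-83407734 was called by 8 of 12 day 10 libraries against 2 of 12 day 5 libraries, both with Tet2-E, and by no MEF library. That region did not pass at day 10 against day 5 (adjusted p = 0.361, exact test stratified by vector).

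Dnmt3a, the de novo methyltransferase found in many somatic cells, had 1 region gained and 3 lost of 18 tested at day 5 (5.56% and 16.7%, against 9.81% and 16.1% over the genome). At day 10 it had 1 gained and 4 lost of 16 tested (6.25% and 25%, against 5.66% and 22.6% over the genome). The gained region was the same at both days, chr12:3837181-3837804. It was called by 12 of 12 day 5 libraries at folds of 6.67 to 9.81 (median 7.34) and by 11 of 12 day 10 libraries at 4.60 to 9.74 (median 6.48), against no MEF library. The adjusted p was 0.00449 at day 5 and 0.0156 at day 10 by Fisher's exact test, and the day 10 library without it was empty vector replicate 3. When peaks had to cover 50% of this region both calls ended (adjusted p = 0.178 at day 5 and 1 at day 10, exact test). The day 10 call also ended at a -log10 q of 5 (0.186) and at equal list length (0.195), and when replicate number 1, 2 or 4 was left out of every group (up to 0.0775). Of the 4 loci, it was the only region absent from MEFs that all day 5 libraries called.

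Regions called in MEFs alone were more numerous at Dnmt3a than at the other loci, 7 of 20 against 1 of 16 at Tet1, 2 of 15 at Tet3 and 0 of 8 at Dnmt3b, and the difference between loci was not tested. Over the genome 17.8% of regions were of this kind. Of the 7 regions, 4 were called by MEF replicates 1 and 3 and by no other library, and these had the longest MEF lists (72332 and 56681 peaks). Without MEF replicate 1, or without MEF replicate 3, a choice made after seeing the data, 3 of 16 Dnmt3a regions called in at least 2 of the other libraries were called in MEFs alone. The one with the smallest p was chr12:3887651-3887951, with folds of 8.47, 8.64, 8.60 and 8.53 in the 4 MEF libraries and no call in any of the 24 later ones. Its adjusted p was 0.00449 at day 5 and 0.00374 at day 10 (Fisher's exact test). For the region chr12:3824930-3825124, replicates 1, 2 and 3 of the MEFs had folds of 5.62, 6.08 and 5.46. For chr12:3835046-3835235, MEF replicates 1, 3 and 4 had 5.82, 6.28 and 4.38. No later library called either of them, with an adjusted p of 0.0311 at day 5 and 0.0276 at day 10 for each (Fisher's exact test). Both calls ended when any one of the 3 MEF libraries with the peak was left out, with adjusted p-values of up to 0.0925 at day 5 and 0.0835 at day 10. For the region at 3835046 they also ended at a -log10 q of 5 (0.129 at day 5 and 0.118 at day 10). At equal list length fewer than 2 of the libraries compared called either region, so neither could be tested.

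A further Dnmt3a region, chr12:3856051-3856438, was lost at day 10. Its folds were 11.0, 5.88, 6.08 and 5.97 in the MEF libraries, and empty vector replicate 2 was the one day 10 library that called it, at 6.69 (adjusted p = 0.0156, Fisher's exact test; 0.769 at equal list length). That call also ended when replicate number 1, 3 or 4 was left out of every group (adjusted p of up to 0.0790, exact test). When peaks had to cover 50% of the region, the day 10 loss did not pass. At day 5, 2 Tet2-WT libraries and 1 empty vector library called it at 4.64 to 6.41 (adjusted p = 0.0678, Fisher's exact test against MEFs). It passed without Tet2-WT replicate 1 or 4 or empty vector replicate 3 of day 5 (adjusted p = 0.0399 to 0.0409, exact test) and at a -log10 q of 5 (0.0161). One region each at Tet1, Tet3 and Dnmt3a thus had the same counts, 4 of 4 in MEFs, 3 of 12 at day 5 and 1 of 12 at day 10. Elsewhere in the Dnmt3a window, chr12:3781089-3781804 was called in 3 MEF, 12 day 5 and 11 day 10 libraries, and chr12:3959707-3960343 in 4, 12 and 10. The last was lost at day 10 against MEFs when peaks had to cover 50% of the region (adjusted p = 0.0265, exact test).

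Dnmt3b, whose product methylates DNA de novo in early embryonic cells, had 8 regions in at least 2 libraries, and none passed in any comparison with the full lists. The smallest adjusted p was 0.450 at day 5 against MEFs and 0.169 at day 10 against MEFs by Fisher's exact test, and 0.154 at day 10 against day 5 by the exact test stratified by vector. Its most widely called region, chr2:153494585-153494775, was found in 3 MEF, 10 day 5 and 6 day 10 libraries, so no region of this window was open in all 28. The region chr2:153457951-153458658 had folds of 8.29, 7.35, 7.50 and 7.11 in the MEF libraries and was called by 8 of 12 day 5 and 4 of 12 day 10 libraries. It was lost at day 5 against MEFs at equal list length (adjusted p = 0.0156, Fisher's exact test) and at day 10 against MEFs at a -log10 q of 5 (0.0293). The region chr2:153474867-153475745 was called in 3 MEF, 9 day 5 and 5 day 10 libraries. One region, chr2:153448296-153448604, was called only at day 10, by 2 libraries of each vector. Its folds were 6.62 and 7.04 with Tet2-E, 7.26 and 6.44 with Tet2-WT, and 6.02 and 5.63 with the empty vector. With 6 of 12 at day 10 against 0 of 12 at day 5 it did not pass (adjusted p = 0.262, exact test stratified by vector).

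The number of peaks per library in each window gave a second view. Libraries were permuted for each window separately (exact permutation test). P-values were adjusted over all windows of 150 kb along the genome plus the 4 locus windows. The latter span 170 kb (Tet1), 180 kb (Tet3), 200 kb (Dnmt3a) and 110 kb (Dnmt3b). Shares and medians over all windows thus come almost wholly from windows of another width. In the Dnmt3a window day 10 libraries held 4 to 10 peaks, a mean of 7.17 ± 1.70 (SD, n = 12), against 17, 8, 13 and 10 in the MEF libraries, a mean of 12 ± 3.92 (SD, n = 4). The ranges overlapped, and the difference of -4.83 peaks passed (adjusted p = 0.0189, permutation test), as 39.3% of 14790 windows did, 35.5% lower and 3.82% higher, with a median difference of -0.917. At day 5 the same window held 8 ± 1.54 peaks and a difference of -4 from MEFs that did not pass (adjusted p = 0.0535, permutation test), where 30.0% of 14677 windows passed, 20.6% lower and 9.39% higher. With each list reduced to the same 27809 strongest peaks, the Dnmt3a difference at day 10 was +0.5 peaks (adjusted p = 0.875, permutation test), so the lower count did not hold at equal list length. Leaving out a replicate number in every group gave adjusted p-values of 0.0286 to 0.115 (permutation test), past the threshold only without replicate 2.

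In the Dnmt3b window day 10 libraries held 2.5 ± 1.51 peaks against 4.25 ± 1.14 at day 5 (SD, n = 12 each), a difference of -1.75 (adjusted p = 0.0348, permutation test within vectors). Of 14337 windows, 24.3% passed, 23.9% lower and 0.405% higher, with a median difference of -0.667. At equal list length this difference was +0.583 (adjusted p = 0.593, permutation test). Without 1 replicate number it had adjusted p-values of 0.0403 to 0.3004 (permutation test), past the threshold only without replicate 2. The Tet1 window held 9 ± 1.63 peaks in MEFs, 7.67 ± 1.497 at day 5 and 8.58 ± 4.27 at day 10. The spread at day 10, 4 to 16 peaks, was the widest of the 3 times, and no comparison of the Tet1 window passed. The Tet3 window held 7.75 ± 1.71 peaks in MEFs, 7.92 ± 1.73 at day 5 and 7.17 ± 1.34 at day 10, and no comparison passed there either. List length moved with these counts, at 41450 to 72332 peaks in MEFs, 41580 to 60361 at day 5 and 27918 to 50733 at day 10.

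**Figure D4:**
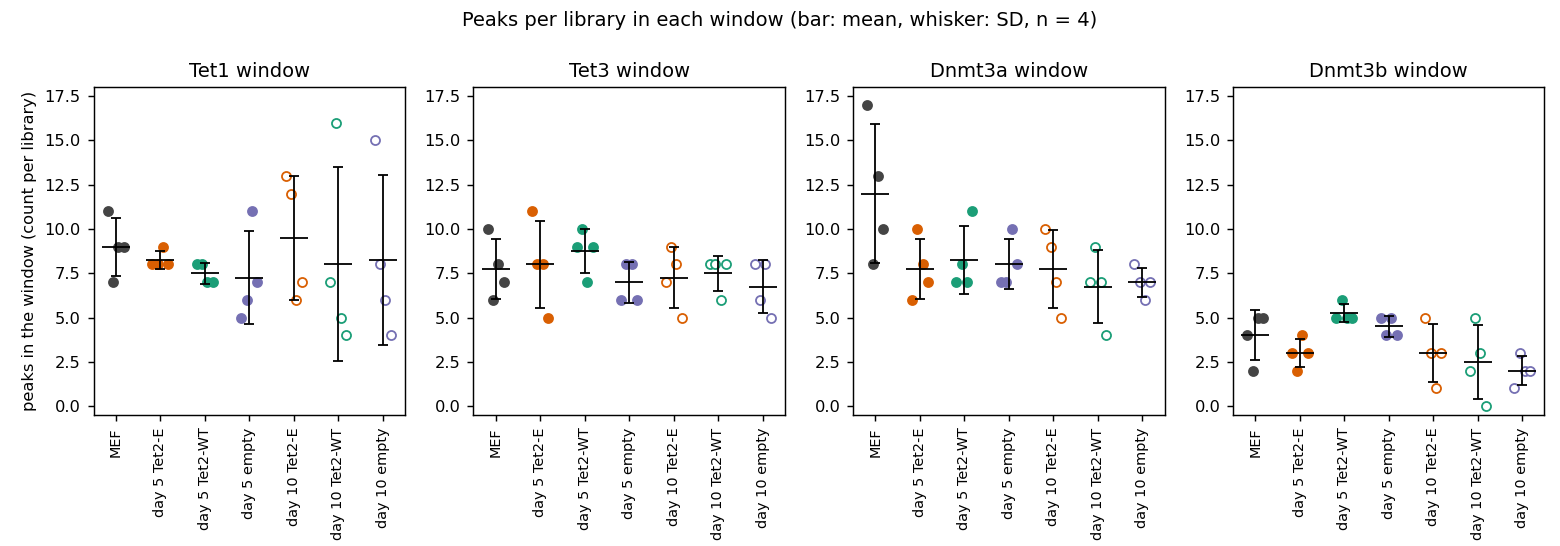
Peaks per library in the 4 windows (vertical axis, count), 1 point per library in groups of 4, with the mean as a bar and the SD as a whisker. MEF points reach 17 in the Dnmt3a window, and day 10 points spread from 4 to 16 in the Tet1 window.

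By group, the order of peak counts changed from window to window. In the Tet1 window it ran from 9.5 ± 3.51 in day 10 Tet2-E libraries through 9 ± 1.63 in MEFs, 8.25 ± 0.5 at day 5 with Tet2-E, 8.25 ± 4.79 at day 10 with the empty vector, 8 ± 5.48 at day 10 with Tet2-WT and 7.5 ± 0.577 at day 5 with Tet2-WT to 7.25 ± 2.63 at day 5 with the empty vector (SD, n = 4 each). In the Tet3 window day 5 Tet2-WT libraries stood first at 8.75 ± 1.26 and day 10 empty vector libraries last at 6.75 ± 1.5. In the Dnmt3a window MEFs stood first, followed by day 5 Tet2-WT at 8.25 ± 1.89, and day 10 Tet2-WT was last at 6.75 ± 2.06. In these 3 windows no step between neighbours in the order was larger than the larger of their SDs. In the Dnmt3b window day 5 Tet2-WT libraries stood first with 5, 6, 5 and 5 peaks, a mean of 5.25 ± 0.5. Day 5 empty vector libraries followed with 5, 4, 5 and 4, a mean of 4.5 ± 0.577, a step larger than both SDs that was not tested within the day. All further steps in that window, down to 2 ± 0.816 at day 10 with the empty vector, were within the larger SD.

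The vectors, which put back a stalling or a wild-type Tet2, were compared over day 5 and day 10 libraries with the day as stratum. No region of the 4 loci passed: 0 of 43 tested for Tet2-WT against empty vector, 0 of 45 for Tet2-E against empty vector and 0 of 45 for Tet2-E against Tet2-WT. Over the genome the share called was 0% in each, with every adjusted p at 1 by the exact test, and no member had an unadjusted p under 0.05, where 525, 340 and 404 regions of the genome did. The smallest p possible between vectors was 0.000408 (exact test). Many regions at that p would be needed before any could pass, so the 0% says little about the vectors. The smallest p that any member reached was 0.0714, unadjusted, by the exact test of Tet2-E against empty vector at the Dnmt3b region chr2:153475750-153476151. Of the Tet2-E libraries, 3 called it at day 10 and 1 at day 5. Of the Tet2-WT libraries, 0 called it at day 10 and 1 at day 5, and no empty vector library did. The other 2 calls were in MEFs.

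At the other loci the member with the smallest p between vectors was as follows. At Tet1 it was chr10:62349276-62350279, called by 3 Tet2-E, 0 Tet2-WT and 1 empty vector libraries at day 10 and by 4, 4 and 3 at day 5 (unadjusted p = 0.143 for Tet2-E against Tet2-WT, exact test). At Tet3 it was chr6:83306529-83306891, called by 1 Tet2-E, 4 Tet2-WT and 2 empty vector libraries at day 10 and by 2, 3 and 2 at day 5 (unadjusted p = 0.133 for Tet2-E against Tet2-WT, exact test). At Dnmt3a it was chr12:3866792-3867030, called by no Tet2-E library and by 3 empty vector libraries over both days (unadjusted p = 0.214, exact test). A Dnmt3b region outside this rule, chr2:153539019-153539246, was singled out after its values were seen: 1 Tet2-E, 1 Tet2-WT and all 4 empty vector libraries called it at day 5, and no other library did. Its unadjusted p was 0.143 for Tet2-E and for Tet2-WT against empty vector by the exact test. Peak counts per window did not pass between vectors at any locus (adjusted p = 1, permutation test), where 0% of all windows did. With 4 libraries per vector and day, a p that misses the threshold does not show that the vectors acted alike at these loci.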

How the data were processed

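Peak lists of 28 mouse ATAC-seq libraries were used, with groups and replicate numbers taken from the labels. The authors deposited 1 MACS2 narrowPeak list for each library, with no pooled calls. Per the submitters' processing notes the tools were Bowtie2, SAMtools, bedtools and MACS2 on mm9, with no versions. Settings and any shift of cut sites were not given in the sources used here. The deposited fold is the ratio of the summit pileup plus 1 to the local background plus 1. The deposited -log10 p and -log10 q belong to the summit, and no list went under a -log10 q of 2. The deposited score is the -log10 q rescaled and rounded, and was not used. Read totals were not used here, so depth was inferred from the fold and the -log10 p, which gave whole-number pileups in every library within 0.0002 on the -log10 p scale. Intervals from counts are not given, since the lists hold peaks only.

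Peaks on 20 chromosomes (1 to 19 and X) were merged where they overlapped by at least 1 bp, with positions counted from 1. A region was tested where 2 or more of the libraries compared had called it, with 2-sided exact tests: Fisher's for 12 against 4 libraries of MEFs, and a conditional test stratified by vector (day 10 against day 5) or by day (vectors). Peaks per window were compared by 2-sided exact permutation tests over tiles of 150 kb plus the 4 windows. P-values were adjusted by Benjamini-Hochberg over all regions or all windows. The smallest p possible is 0.000549 for 12 against 4 libraries (Fisher's exact test) and 0.000408 between vectors (stratified exact test). The tests were checked on simulated data. The loci, windows and tests were chosen with earlier results of these data known. Text names regions past the threshold between days, regions called in all libraries and, for each locus, the region with the smallest p between vectors. Other regions named fall outside this rule and were picked with their values known, whether or not their passage says so. Alternatives were filters of 4 libraries or 1 library, 50% coverage of the region, a -log10 q of at least 5, equal list length, tiles of 50 kb, leaving out libraries, and a replicate block. Python 3.11.15, numpy 2.4.6, scipy 1.17.1, pandas 2.3.3 and matplotlib 3.10.9 were used.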

Additional observations from a re-analysis of the deposited data

Results flagged for a closer look

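Among the 28 sets of 4 libraries (7 groups at 4 loci), 3 held a library whose peak count in the window stood apart. It was set against the other 3 libraries by the gap criterion for small groups. Chance meets that criterion in about 1 of 20 sets of continuous values. That rate does not hold for small whole-number counts with ties, so it gives no expected number here. In the Tet1 window Tet2-E replicate 3 of day 5 had 9 peaks and the other 3 had 8 each. In the Tet3 window Tet2-WT replicate 3 of day 10 had 6 peaks and the other 3 had 8 each. In the Dnmt3b window Tet2-WT replicate 2 of day 5 had 6 peaks and the other 3 had 5 each. Each gap was of 1 or 2 peaks in a group whose other members were equal, and none of these libraries stood apart in a second window.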

How the results depend on the processing

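For named regions, 19 results (each 1 region in 1 comparison) had 486 recomputed values, and 400 of these kept direction and side of the threshold. The same held for 161 of 192 differences in peaks per window. Counts of regions were scored more loosely. Of 250 such counts, 200 equalled the main count or lay close to it, so a small change in number was scored as kept. Equal list length had the largest effect. At day 5 against MEFs 8 regions of the loci then passed, 4 of them gained and the others lost, where 26.3% of 57551 regions over the genome passed. At day 10 against MEFs 4 passed, 2 of them lost and the others gained, where 25.4% of 58512 did. At equal length the difference in peaks per window against MEFs turned round at day 5 in the Tet1 (0.167), Dnmt3a (0.75) and Dnmt3b (-0.5) windows, and at day 10 in the Tet1 (2.25), Tet3 (1.75), Dnmt3a (0.5) and Dnmt3b (0.0833) windows. It also turned round at day 10 against day 5 for Tet3 (1.08) and Dnmt3b (0.583), for Tet2-WT against empty vector at Dnmt3b (-0.5), for Tet2-E against empty vector at Dnmt3a (-0.375) and for Tet2-E against Tet2-WT at Dnmt3a (-0.75). The share of Tet2-E libraries calling the Tet3 region at 83306529 was then 25 points above that of Tet2-WT, where it was 50 points lower with the full lists. At a -log10 q of 5 there were 5 regions lost at day 5 and 1 gained at day 10 against MEFs, and peak differences of -0.167 (Dnmt3b, day 5 against MEFs), 0.0833 (Tet3, day 10 against MEFs), -1 (Dnmt3b, day 10 against day 5, no longer past the threshold) and -0.625 (Dnmt3a, Tet2-E against Tet2-WT). When peaks had to cover 50% of a region, 5 were lost at day 5 and 0 gained at day 10 against MEFs. With a filter of 4 libraries, 1 was lost at day 5 against MEFs and 1 gained at day 10 against day 5. Over the genome, the share past the threshold in either direction at day 5 against MEFs was 26.3% at a -log10 q of 5. It was 23.0% with 50% coverage and 29.9% with the filter of 4 libraries. At day 10 against MEFs it was 28.2% both at a -log10 q of 5 and with 50% coverage. At day 10 against day 5 it was 2.69% with the filter. With tiles of 50 kb the Dnmt3b difference of -1.75 at day 10 against day 5 had an adjusted p of 0.0672 (permutation test). The cause was not tested in any of these.

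The replicate numbers did not meet the criterion for pairing, a correlation over 0.1 in every pair: of 84 pairs of same-numbered libraries, 0 had such a correlation of deviations (-0.0259 to 0.0849), and 17 of 28 libraries correlated best with their own number. As a hint from the data and not the design, all same-number correlations among the 3 day 10 groups were positive (0.00693 to 0.0849). With the numbers as a replicate block, 1 region was lost at day 5 against MEFs and 1 (Tet1, 62275269) gained at day 10 against day 5, and the calls of the Dnmt3a regions at 3824930 and 3835046 ended (adjusted p = 0.0601 at day 5 and 0.0552 at day 10, exact test). When single libraries or replicate numbers were left out, 1 to 3 regions were gained and 1 to 5 lost at day 5 against MEFs, 1 to 3 gained and 1 to 6 lost at day 10 against MEFs, and 0 to 1 gained and 0 to 1 lost at day 10 against day 5. Without 1 replicate number, the peak difference ran from -0.667 to 0.667 (Tet3) and -0.333 to 0.667 (Dnmt3b) at day 5 against MEFs, from -2.22 to 0.778 (Tet1) and -6.56 to -3.56 (Dnmt3a) at day 10 against MEFs, and from -0.333 to 2.33 (Tet1) and -2.22 to -1.44 (Dnmt3b) at day 10 against day 5. For the vectors it ran from -1.67 to 0.833 (Tet1) for Tet2-WT against empty vector, from -0.5 to 0.833 (Dnmt3a) for Tet2-E against empty vector and from -1.17 to 0.5 (Tet3) for Tet2-E against Tet2-WT.

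A region without a peak is not shown to be closed, since a list holds only summits past the caller's threshold. Calls are yes or no, so a change in height within called regions is not seen, and 4 MEF libraries set the smallest p. Positions could not be tied to promoters or exons here.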

Other observations

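The 29 regions of the 4 windows that a single library called were spread over 15 libraries, and 11 of them came from MEF libraries, 5 from MEF replicate 1, which had the longest list (72332 peaks). Of the rest, 6 came from day 10 Tet2-E libraries, 3 from Tet2-WT replicate 2 of day 10 and 1 from an empty vector library of day 10, and at day 5 there were 3 with Tet2-E, 3 with Tet2-WT and 2 with the empty vector. Their deposited folds ran from 3.51 to 6.66 in MEF libraries and from 4.35 to 6.38 elsewhere, near the low end of the folds in regions called by all 28 libraries (4.41 to 14.9). Tet2-WT replicate 2 of day 10 had the longest list of that day (50733 peaks) and 16 peaks in the Tet1 window. It held the 1 day 10 call of the MEF region at 62313740 as well as 4 of the 6 regions seen at day 10 only.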
